A study of Mus musculus with 157 samples.

Results

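Gamma delta T cells are T cells whose receptor is built from a gamma and a delta chain instead of the alpha and beta chains of conventional T cells. The 6 genes described here are the constant regions of the gamma chain (Tcrg-C1, Tcrg-C2, Tcrg-C4) and of the delta chain (Trdc), the transcription factor gene Sox13 and the surface scavenger receptor gene Cd163l1. They were taken from the 50686 genes of 2 count tables by matching Ensembl identifiers to these symbols. The labels name no sort for gamma delta T cells, and the genes were read as 6 genes in thymocytes and thymic lymphomas, not as a cell count.

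The series holds RNA-seq of mouse thymus and thymic lymphoma with changed Cdc20, the activator of the anaphase-promoting complex in mitosis. Its labels write the alleles as Cdc20(+/D) and Cdc20(D/AAA), shortened here to +/D and D/AAA, where AAA is known as a form that the spindle checkpoint cannot hold back, and all libraries except 1 carry one of these genotypes. The label prefixes RERT2, LCK and CD4 name the mouse line, and the labels used here do not say which cells each one drives. MYCChr6 and p53(+/D) are further alleles as the labels write them. The earlier run held 81 libraries, all RERT2. In +/D mice these were sorted thymocytes of the double negative stages DN1 (n = 6), DN2 (8), DN3 (8) and DN4 (8) and of the double positive stage DP (7). In D/AAA mice they were sorted DN1 (9), DN2 (1), DN3 (5), DN4 (6) and DP (11) cells, early tumours sorted as DP (5) and early tumours with no sort named (7). The later run held 76 libraries of unsorted tissue. Non-tumoral thymus came from RERT2 mice that were +/D (6), D/AAA (9), +/D with MYCChr6 (2) or D/AAA with MYCChr6 (3). Lymphomas came from RERT2 D/AAA mice (22), RERT2 D/AAA mice with p53(+/D) (10), RERT2 D/AAA MYCChr6 mice (3), LCK D/AAA MYCChr6 mice (14), LCK +/D MYCChr6 mice (4), CD4 D/AAA MYCChr6 mice (2) and a p53(-/-) mouse (1), the one library with no Cdc20 allele in its label. The labels do not say that the samples are separate animals, and p-values then cover only the spread among these libraries.

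Both receptor loci are assembled during thymocyte development by joining variable (V) and joining (J) segments upstream of a constant region, with diversity segments as well at the delta locus. The mouse gamma locus carries 4 clusters, each with its own constant gene, and transcription of a cluster can start before its V segment is joined. Trdc lies inside the alpha locus and is cut out of the chromosome when a V alpha segment joins a J alpha segment, a step of the DP stage. Sox13 is an HMG-box factor known for promoting the gamma delta lineage and its interleukin-17 producing branch. Cd163l1 (also Scart1) belongs to the scavenger receptor cysteine-rich family and is known as a surface protein of gamma delta T cells.

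All positions are GRCm38 with GENCODE M21 gene models. Tcrg-C1 (ENSMUSG00000076749) lies on chromosome 13 at 19214103 to 19217024 on the plus strand, Tcrg-C2 (ENSMUSG00000076752) at 19304649 to 19307551 on the minus strand and Tcrg-C4 (ENSMUSG00000076757) at 19344558 to 19352756 on the plus strand. Trdc (ENSMUSG00000104876) lies on chromosome 14 at 54142851 to 54148868 on the plus strand. Sox13 (ENSMUSG00000070643) lies on chromosome 1 at 133382303 to 133424377 on the minus strand, and Cd163l1 (ENSMUSG00000025461) on chromosome 7 at 140218267 to 140231145 on the plus strand. The first 180 bases of the first exon of each gamma constant gene are printed because the copies are alike enough for reads to be placed on more than one of them. Capitals mark the 29 positions of these 180 at which the 4 copies are not all the same. Tcrg-C3 is shown for comparison and is not among the 6 genes. The stretches run 5′ to 3′ on the coding strand, from chr13:19214103-19214282 (plus) for Tcrg-C1, chr13:19307372-19307551 (minus) for Tcrg-C2, chr13:19260885-19261064 (plus) for Tcrg-C3 and chr13:19344558-19344737 (plus) for Tcrg-C4.
Tcrg-C1: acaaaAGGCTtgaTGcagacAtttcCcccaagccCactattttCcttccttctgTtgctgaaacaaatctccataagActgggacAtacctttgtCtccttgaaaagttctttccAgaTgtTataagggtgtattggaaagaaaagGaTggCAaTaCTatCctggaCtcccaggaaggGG
Tcrg-C2: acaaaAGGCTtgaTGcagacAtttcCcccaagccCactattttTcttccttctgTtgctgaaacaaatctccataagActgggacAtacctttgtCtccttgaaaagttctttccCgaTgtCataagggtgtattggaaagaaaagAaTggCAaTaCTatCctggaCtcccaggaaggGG
Tcrg-C3: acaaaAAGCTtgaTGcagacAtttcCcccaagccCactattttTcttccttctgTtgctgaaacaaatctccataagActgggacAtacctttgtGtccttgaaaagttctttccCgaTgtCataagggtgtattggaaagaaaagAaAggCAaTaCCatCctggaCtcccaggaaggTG
Tcrg-C4: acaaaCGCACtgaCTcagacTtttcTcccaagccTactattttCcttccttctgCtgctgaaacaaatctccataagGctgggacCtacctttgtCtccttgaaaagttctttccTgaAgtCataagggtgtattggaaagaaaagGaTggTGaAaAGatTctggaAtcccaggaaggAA
In the full first exon of 330 bases Tcrg-C1 and Tcrg-C2 differed at 9 positions (97.3% identical) and Tcrg-C1 and Tcrg-C4 at 59 (82.1%). Of all 50-base windows of the Tcrg-C1 transcript, 29.6% were found unchanged in another copy, against 25.4% for Tcrg-C2 and 0 of 936 for Tcrg-C4. At 100 bases the shares were 3.4% for Tcrg-C1 and 0.6% for Tcrg-C2. The split of counts between Tcrg-C1 and Tcrg-C2 is therefore less certain than their sum, while Tcrg-C4 is separable by sequence. Their sum is also open to reads shared with Tcrg-C3, whose first exon is 96.1% identical to Tcrg-C1 and 96.7% to Tcrg-C2. Tcrg-C3 is not counted in the sums and shares of gamma constant genes below. Trdc overlaps the V segment Trdv5 on the opposite strand for 207 bases (54148662 to 54148868), and without strand information reads there cannot be told apart.

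Levels are CPM, counts scaled to a common total of reads, with totals scaled by TMM, a factor that evens out the composition of libraries, and levels of the 2 runs are not compared. Total counts ran from 2701382 to 11595463 in 80 libraries of the earlier run and from 1708619 to 8009572 in the later run, and sorted DN1 D/AAA replicate 8 held 21199. All +/D sorted libraries lie among the first 56 libraries of the earlier run in its library order, and the last 25 are all D/AAA. Il2ra, which encodes CD25, followed the labels DN1 to DN4. Its means were 646 ± 97.3 (SD, n = 8) and 497 ± 162 (n = 8) CPM in +/D DN2 and DN3 cells. In DN1 its mean was 14.2 ± 6.40 (n = 6) and in DN4 8.05 ± 4.99 (n = 8). Between +/D DN2 and DN3 cells, 1 of 8 stage marker genes passed the edgeR test described below. Other markers went against the labels. Cd44, a surface marker of DN1 and DN2 cells, was at 0.906 to 11.5 CPM in +/D DN2 cells. The +/D DN1 libraries held 694 to 1072 CPM of Trac, the alpha constant gene of mature T cells, against 0.906 to 5.46 CPM in +/D DN2 cells. They also held 1595 to 2380 CPM of 6 NK and innate lymphoid genes summed, against 78.1 to 178 in DN2 cells. Some libraries labelled non-tumoral stood apart by a raised expression of chromosome 15, scored as the mean log2 difference of its genes from the +/D libraries. The score was above 0.292, the midpoint between no shift and the log2 shift of 1 extra copy, in 4 of 9 D/AAA thymus and 2 of 11 D/AAA DP libraries and in 0 of 6 +/D thymus libraries.

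In +/D thymocytes the gamma constant genes were highest at DN2 and nearly gone at DP, while Trdc moved within a narrower range through the double negative stages. The 8 DN2 libraries held 1006 to 2632 CPM of Tcrg-C1 (median 1979), above every DN1 library (170 to 318, median 251). At DN3 the range was 360 to 722 CPM (median 618), at DN4 34.8 to 123 (79.5) and at DP 1.11 to 12.2 (2.36). The ranges of Tcrg-C1 did not overlap at any of the 4 steps. Tcrg-C2 had medians of 383 CPM at DN1, 1178 at DN2, 797 at DN3, 156 at DN4 and 5.63 at DP, and its DN2 (734 to 1381) and DN3 (488 to 969) ranges overlapped. Tcrg-C4 had medians of 177, 434, 317, 67.5 and 1.49 CPM at these stages, and its ranges overlapped between DN1 and DN2 and between DN2 and DN3. For the 3 genes summed, no neighbouring stages overlapped, with means of 803 ± 149, 3336 ± 797, 1643 ± 378, 292 ± 94.7 and 11.3 ± 7.78 CPM from DN1 to DP.

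Trdc, the delta constant gene, ran from 121 to 210 CPM at DN1 (median 168), 161 to 324 at DN2 (217), 102 to 175 at DN3 (133) and 157 to 264 at DN4 (206). These ranges overlapped at each step, and only the DP libraries (26.1 to 63.8, median 57.5) lay apart. Sox13 had medians of 50.5, 59.1, 33.8 and 22.7 CPM from DN1 to DN4 with overlapping ranges, and of 1.11 (0 to 8.75) at DP. Cd163l1 was highest at DN1, with 60.2 to 430 CPM (median 278), and lower at DN2 (41.1 to 82.5, median 51.9). At DN3 it had 4.89 to 37.7 CPM (9.36), at DN4 8.68 to 50.7 (22.96) and at DP 0 to 19.9 (0.372). Per kilobase of exon, mean DN2 levels were 1992 CPM per kb for Tcrg-C1, 1198 for Tcrg-C2, 407 for Tcrg-C4, 58.04 for Trdc, 14.8 for Cd163l1 and 12.4 for Sox13. At DP the order changed, and Trdc was the highest of the 6 genes at 13.4 CPM per kb against 5.79 for Tcrg-C2 and 4.66 for Tcrg-C1.

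**Figure D1:**
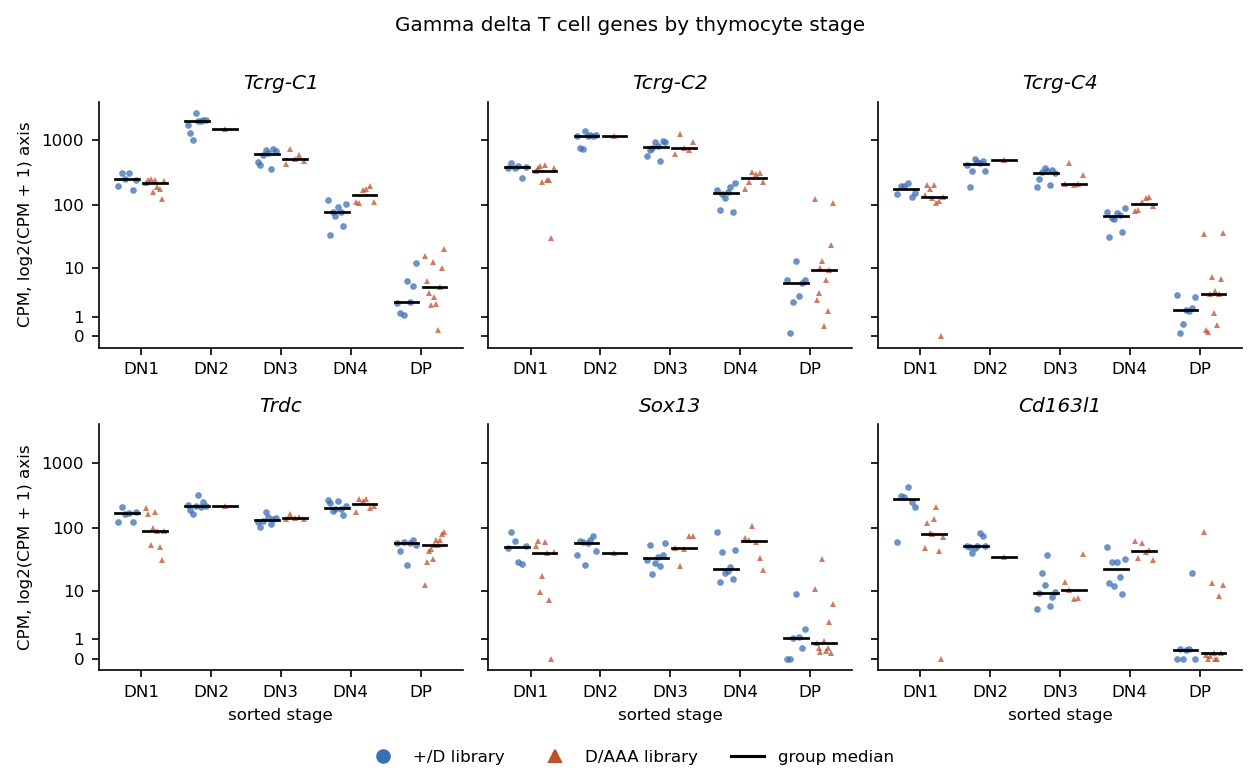
CPM of each of the 6 genes by sorted stage, on a log2(CPM + 1) axis labelled in CPM, with 1 point per library (circles +/D, triangles D/AAA) and a line at each group's median. The +/D median of Tcrg-C1 is 1979 CPM at DN2 and 2.36 at DP, while that of Trdc stays between 133 and 217 CPM from DN1 to DN4.

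The steps between neighbouring +/D stages were tested in 1 edgeR quasi-likelihood fit of 5 groups with Benjamini-Hochberg adjustment over 15278 genes, and fold changes are log2 ± SE. From DN1 to DN2, 5 of the 6 genes passed an adjusted p of 0.05, where 48.5% of all tested genes did. Tcrg-C1 rose by 2.91 ± 0.34 (adjusted p 6.37e-09), Tcrg-C2 by 1.57 ± 0.31 (7.55e-05), Tcrg-C4 by 1.21 ± 0.26 (1.69e-04) and Trdc by 0.51 ± 0.16 (0.0086). Cd163l1 changed by -2.17 ± 0.66 (0.00677), with 8 of 8 DN2 libraries below the DN1 median. For Sox13 the difference was 0.10 ± 0.50 (0.892). With all groups of the run in 1 fit, Tcrg-C4 and Trdc lost this call and 3 of the 6 genes passed, where 40.3% of all genes did. In bulk samples, fewer cells of a type and less RNA per cell cannot be told apart, at this step or any other. Markers of NK, NKT, B and myeloid cells were also lower at DN2 than at DN1 in all libraries (B cell genes 903 to 3235 CPM at DN1 and 40.9 to 182 at DN2, myeloid genes 187 to 997 and 47.3 to 109). Their part in these differences was not tested.

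From DN2 to DN3, 2 of 6 genes passed, against 4.35% of all genes: Tcrg-C1 fell by 1.68 ± 0.29 on the log2 scale (adjusted p 2.35e-04) and Trdc by 0.75 ± 0.15 (0.00126). All 8 DN3 libraries lay below the DN2 median for each of the 6 genes, but the ranges of Tcrg-C2, Tcrg-C4, Trdc and Sox13 overlapped. How many of all genes did the same was not counted. The differences of Cd163l1 (-2.11 ± 0.64, adjusted p 0.0547), Tcrg-C2 (-0.50 ± 0.28, 0.442), Tcrg-C4 (-0.46 ± 0.23, 0.372) and Sox13 (-0.57 ± 0.46, 0.691) did not pass. Under limma voom, an alternative chosen after seeing the data, 4 of the 6 genes passed, against 5.39% of all genes. In the fit of all groups of the run, Trdc did not pass (-0.74, adjusted p 0.510) and 1 of the 6 did, against 2.17% of all genes. Of Tcrg-C1, Tcrg-C2 and Tcrg-C4, the first made up the following share of their summed counts: 30.96% ± 1.99 (SD, n = 6) at DN1, 54.8% ± 3.30 (n = 8) at DN2, 34.95% ± 2.11 (n = 8) at DN3 and 26.98% ± 3.31 (n = 8) at DN4. The DN2 libraries (48.3% to 58.03%) did not overlap those of DN1 (27.76% to 33.21%) or DN3 (30.53% to 38.13%).

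From DN3 to DN4, 4 of 6 genes passed, against 15% of all genes, and the gamma constant genes and Trdc moved in opposite directions. Tcrg-C1 fell by 2.86 ± 0.30 (adjusted p 9.58e-09), Tcrg-C2 by 2.39 ± 0.29 (1.65e-07) and Tcrg-C4 by 2.18 ± 0.24 (1.47e-08). Trdc rose by 0.67 ± 0.15 (0.00136), with 8 of 8 DN4 libraries above the DN3 median, but did not pass in the fit of all groups of the run (0.69, adjusted p 0.297). Cd163l1 (0.88 ± 0.63, 0.409) did not pass, nor did Sox13. From DN4 to DP all 6 fell, at a step where 49.5% of all genes passed and 25% fell. The changes were -4.19 ± 0.36 for Tcrg-C1 (5.22e-12), -4.81 ± 0.36 for Tcrg-C2 (1.47e-13), -5.202 ± 0.32 for Tcrg-C4 (3.17e-16), -2.02 ± 0.16 for Trdc (2.91e-13), -4.23 ± 0.59 for Sox13 (1.93e-07) and -2.95 ± 0.74 for Cd163l1 (0.00116). In a test across all 5 stages, 6 of 6 genes passed, as did 72.6% of all genes.

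**Figure D2:**
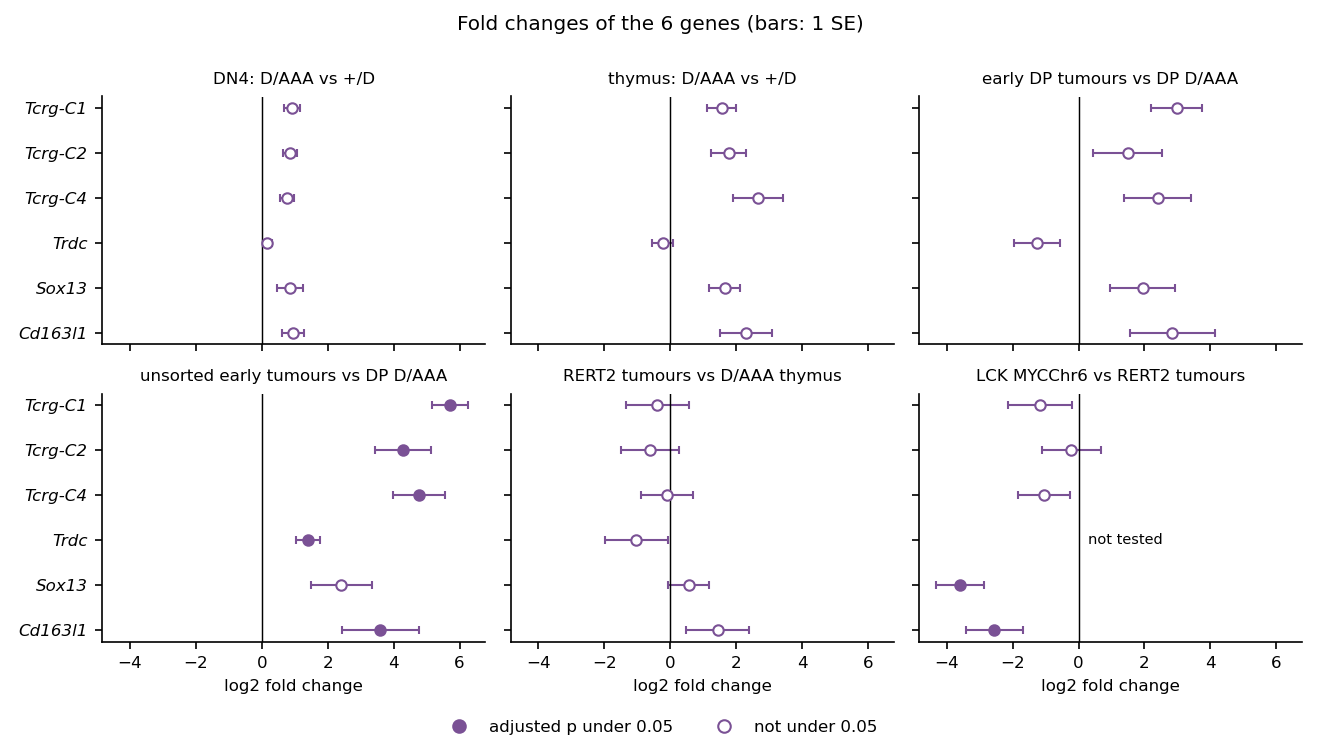
Log2 fold change ± 1 SE of each gene in 6 comparisons from edgeR, with filled symbols where the adjusted p is under 0.05. Panels show D/AAA against +/D at DN4 and in thymus, and sorted and unsorted early tumours against D/AAA DP cells. The others show RERT2 D/AAA tumours against D/AAA thymus and LCK D/AAA MYCChr6 tumours against RERT2 D/AAA tumours. Tcrg-C1 lies at 5.70 in unsorted early tumours and Sox13 at -3.59 in LCK D/AAA MYCChr6 tumours.

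V segments give a view of the gamma loci that the constant genes do not. Counts of the 7 gamma V genes per 100 gamma constant counts were 26.9 ± 1.94 (SD, n = 6) at DN1, 4.53 ± 1.69 (n = 8) at DN2, 15.8 ± 2.30 (n = 8) at DN3 and 24.9 ± 2.94 (n = 8) at DN4 in +/D cells. The DN2 libraries (2.094 to 6.576) lay below every DN1 (25.18 to 29.39) and DN3 library (12.55 to 19.53). The stage with the most constant region RNA thus had the fewest V counts per constant count. This ratio also falls when constant counts rise, and the summed gamma V levels of these stages are not given here. The single D/AAA DN2 library had 4.95. Of the gamma segments besides the 6 genes (12 genes, 11 tested), 4 rose and 5 fell from DN1 to DN2. The joining segment Trgj1 changed by 2.63 ± 0.33 and Tcrg-C3 by 3.44 ± 0.53, while the V genes Tcrg-V6 and Tcrg-V1 changed by -4.53 ± 0.95 and -1.55 ± 0.36. At the next step Trgj1 (-1.65 ± 0.28) and Tcrg-C3 (-2.19 ± 0.44) fell and Tcrg-V1 (1.39 ± 0.34) and Tcrg-V4 (1.29 ± 0.34) rose, in all 3 higher and 2 lower. From DN3 to DN4 0 of 11 rose and 7 fell, and from DN4 to DP 0 rose and 9 fell. The delta segments (20 genes, 15 tested) showed 0 higher and 9 lower at the first step, 2 and 0 at the second, 6 and 0 at the third and 5 and 3 at the last. Their median differences were -3.04, 0.95, 1.26 and 0.13, with medians of all tested genes between 0.0032 and 0.0133. Of all tested genes, 48.5%, 4.35%, 15% and 49.5% passed at these steps in either direction.

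A list of 28 genes known from the gamma delta lineage and its effector programmes, of which 25 were tested, did not follow the constant genes. From DN1 to DN2, 2 rose and 19 fell (list median -4.61), where of all 15278 genes 3751 rose and 3658 fell. Lower were, among others, Il2rb, the interleukin-2 receptor beta chain (-8.80 ± 0.57), Nt5e, which encodes CD73 (-9.22 ± 0.70), and the transcription regulator Id2 (-6.07 ± 0.29), while Sox4 rose (3.18 ± 0.20). Il2rb and Id2 are also genes of NK and innate lymphoid cells, whose 6 markers all fell at this step (median -9.05), as did 4 of 4 NKT (-6.88) and 4 of 4 B cell markers (-5.20). Their part in the list's decrease was not tested. From DN2 to DN3, 3 rose and 6 fell (median -0.32), against 184 and 480 of all genes; Id3 (1.08 ± 0.18), a regulator of thymocyte differentiation, was among the higher and Zbtb16, which encodes PLZF (-5.10 ± 0.76), among the lower. From DN3 to DN4, 14 rose and 1 fell (median 1.41 against 0.0133 for all genes), with Nt5e at 6.51 ± 0.69 and Il2rb at 4.59 ± 0.48, while 1141 of all genes rose and 1150 fell. Markers of other cells rose at this step too, with 5 of 5 red cell (median 8.11), 3 of 4 B cell (6.44) and 2 of 4 NKT genes (2.47), and their part was not tested. From DN4 to DP, 5 rose and 12 fell (median -0.66), against 3740 and 3817 of all genes, and red cell (5 of 5, median -8.01) and B cell genes (3 of 4, -7.36) fell.

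By genotype, none of the 6 genes passed the test at any sorted stage. At DN1, D/AAA libraries had Cd163l1 at 0 to 213 CPM (median 79.3) against 60.2 to 430 (278) in +/D cells, and 9 of 9 lay below the +/D median. The 9 include replicate 8, whose 21199 total counts are too few to measure these genes well. Medians of the other genes were 225 CPM for Tcrg-C1, 337 for Tcrg-C2, 134 for Tcrg-C4, 90.4 for Trdc and 40.8 for Sox13, and their ranges overlapped those of +/D cells. The log2 difference was -1.40 ± 0.38 (edgeR p 0.00186, adjusted p 0.851), and the other 5 genes differed by -0.48 to -0.19. No gene at all passed here (0.0% of 12822; 353 at an unadjusted p under 0.05), with 8 under DESeq2 and 0 under voom. At DN3, 0 of 6 genes and 0.0% of all genes passed (549 unadjusted), with 13 under DESeq2 and 2 under voom. The 5 D/AAA DN3 libraries held 425, 732, 517, 604 and 481 CPM of Tcrg-C1, 622, 1238, 757, 715 and 941 of Tcrg-C2 and 211, 442, 204, 217 and 290 of Tcrg-C4, in the order of replicates 1 to 5. Replicate 2 alone lay outside the +/D ranges of these genes, above each. Trdc was at 138, 163, 141, 145 and 138 CPM, all within the +/D range. Sox13 was at 49.6, 25.4, 46.9, 75.3 and 76.02 CPM and Cd163l1 at 14.1, 10.1, 7.11, 7.66 and 39.9, so that replicates 4 and 5 lay above the +/D range of Sox13 and replicate 5 above that of Cd163l1. The lowest unadjusted p was 0.0462 (Sox13), and the adjusted p was 0.995 for each of the 6. The single D/AAA DN2 library held 1505 CPM of Tcrg-C1, 1167 of Tcrg-C2, 504 of Tcrg-C4, 216 of Trdc, 40.4 of Sox13 and 35.2 of Cd163l1, within the +/D range for 5 genes and below it for Cd163l1.

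At DN4 the D/AAA libraries leaned higher for the gamma constant genes. Tcrg-C1 ran from 107 to 200 CPM (median 143), Tcrg-C2 from 178 to 321 (267) and Tcrg-C4 from 82.3 to 135 (104), and 6 of 6 libraries lay above the +/D median for each. Trdc ran from 175 to 277 CPM (median 237), Sox13 from 21.8 to 107.9 (63.6) and Cd163l1 from 32.1 to 62.5 (43.9). The ranges of all 6 overlapped those of +/D cells. Differences were 0.92 ± 0.24 for Tcrg-C1 (edgeR adjusted p 0.537), 0.86 ± 0.21 for Tcrg-C2 (0.364), 0.76 ± 0.22 for Tcrg-C4 (0.623), 0.95 ± 0.34 for Cd163l1 (0.763), 0.85 ± 0.40 for Sox13 (0.763) and 0.17 ± 0.14 for Trdc. Thus 0 of 6 passed, against 0.0081% of all genes (798 unadjusted), while DESeq2 called Tcrg-C2 (adjusted p 0.038) and 0.211% of all genes. Red cell genes leaned higher in D/AAA cells at this stage, though 0 of 5 passed. Their sums were 117 to 3039 CPM in +/D and 1778 to 35940 CPM in D/AAA libraries, and their part in the difference was not tested. At DP, 0 of 4 tested genes passed (0.00803% of all genes, 1325 unadjusted), since Sox13 and Cd163l1 were too low to be kept. The 11 D/AAA libraries ran from 0.235 to 20.4 CPM of Tcrg-C1 (median 4.74), 12.7 to 85.01 of Trdc (53.3), 0.210 to 32.9 of Sox13 (0.780) and 0 to 84.9 of Cd163l1 (0.210). They spread widely for the other 2 genes, from 0.424 to 127 CPM of Tcrg-C2 (median 9.49) and 0.159 to 36.8 of Tcrg-C4 (3.51) and the differences were 2.502 ± 1.02 (adjusted p 0.409) and 2.51 ± 0.92 (0.349). Replicate 1 (127 CPM of Tcrg-C2, 35.7 of Tcrg-C4, 84.9 of Cd163l1) and replicate 11 (108.4 of Tcrg-C2, 36.8 of Tcrg-C4) were the highest. Replicate 1 was 1 of the 2 DP libraries with a chromosome 15 score above 0.292; without both, the differences were 1.86 and 1.95. In 1 fit of the whole run, Tcrg-C2 and Tcrg-C4 passed, as did 0.882% of all genes. Across DN1, DN3, DN4 and DP, the test of a genotype effect that differs by stage called 0 of 6 genes (lowest adjusted p 0.258, Tcrg-C4) and 0.134% of all genes (1369 unadjusted).

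Early tumours sorted as DP held more Tcrg-C1 and Tcrg-C4 than every D/AAA DP library in 3 of 5 cases, and those 3 had less Trdc than any of them. Tcrg-C1 was at 4.73, 1.5003, 144, 108.2 and 33.2 CPM in replicates 1 to 5, Tcrg-C2 at 16.9, 4.20, 189, 144 and 41.6 and Tcrg-C4 at 6.75, 0.900, 128, 58.1 and 44.7. Trdc was at 69.8, 28.2, 0.260, 3.17 and 5.41 CPM, against 12.7 to 85.0 in D/AAA DP cells. Replicates 3, 4 and 5 thus lay below every D/AAA DP library for Trdc and above all of them for Tcrg-C1. Cd163l1 was at 7.43, 87.0, 41.6, 107.9 and 159 CPM and Sox13 at 4.50, 6.60, 10.2, 10.1 and 65.99, against medians of 0.210 and 0.780 in D/AAA DP cells. The 6 NK and innate lymphoid genes summed to 48.2 to 1958 CPM (median 490) in these tumours and 24.4 to 724 (52.6) in D/AAA DP cells, and their part was not tested. Trac was present in all 5 at 866, 402, 163, 402 and 306 CPM. None of the 6 genes passed the edgeR test, nor did any gene (0.0% of 12245; 2719 unadjusted, with 856 under DESeq2 and 2176 under voom). The differences were 2.97 ± 0.78 for Tcrg-C1 (adjusted p 0.0868), 2.40 ± 1.02 for Tcrg-C4 (0.181), 2.85 ± 1.297 for Cd163l1 (0.214), 1.94 ± 0.99 for Sox13 (0.253), 1.49 ± 1.05 for Tcrg-C2 (0.408) and -1.26 ± 0.70 for Trdc (0.292).

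Calls appeared when 1 library was left out and under other settings too. Without replicate 1 of the sorted early tumours, whose chromosome 15 score was 0.019 against 0.552 to 0.822 in the other 4, 1549 genes passed, Tcrg-C1 among them at 3.30 (adjusted p 0.0160) and Trdc at -2.46 (0.0311). Leaving out any other sorted early tumour gave 0 genes. With all 5 tumours kept, 1536 genes passed in 1 fit of the run and 736 within the last 25 libraries. Without the 2 DP libraries above the chromosome 15 threshold 1723 genes passed, among them Tcrg-C1, Sox13 (3.93, adjusted p 0.00578) and Cd163l1 (5.19, 0.0140). Leaving out replicate 1 or these DP libraries kept the direction of all 6 genes. The chromosome 14 score, for the chromosome that carries Trdc, was 0.026 in replicate 1 and 0.377 to 0.529 in the other 4. Replicate 2, with Trdc inside the D/AAA DP range, was at 0.377. The score averages the whole chromosome without receptor genes and gives no level of the Trdc locus. Its relation to Trdc was not tested.

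Unsorted early tumours had medians of the gamma constant genes between those of D/AAA DN1 and DN3 cells. Tcrg-C1 ran from 236 to 743 CPM (median 323), Tcrg-C2 from 342 to 1031 (472) and Tcrg-C4 from 159 to 342 (209). Trdc ran from 30.7 to 264 CPM (median 136), Sox13 from 0.569 to 56.7 (19.4) and Cd163l1 from 3.45 to 301 (114). Every one of the 7 libraries lay above all D/AAA DP libraries for the 3 gamma constant genes. Replicate 2 was the highest for Tcrg-C1 (743 CPM) and Tcrg-C2 (1031) and the lowest for Cd163l1 (3.45), and it differed from the others in holding 476 CPM of Ptcra, the pre-T cell receptor alpha gene, and 18.1 CPM of Trac. Replicate 3 held 140 CPM of Ptcra and the other 5 at most 2.07.

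Against D/AAA DP cells, 5 of 6 genes rose in the unsorted early tumours, where 29.1% of all genes passed and 15.9% rose. The differences were 5.70 ± 0.55 for Tcrg-C1 (edgeR adjusted p 9.28e-07), 4.77 ± 0.80 for Tcrg-C4 (2.09e-04), 4.28 ± 0.85 for Tcrg-C2 (9.76e-04), 3.60 ± 1.17 for Cd163l1 (0.0266) and 1.40 ± 0.38 for Trdc (0.00793, 5 of 7 libraries above the DP median). Sox13 differed by 2.41 ± 0.92 (0.0541) and passed under DESeq2 (2.41, adjusted p 0.0196), under voom (3.19, 0.0121), in 1 fit of the run (2.33, 0.00216), within the last 25 libraries (3.91, 0.00638) and without the DP libraries of raised chromosome 15 (4.35, 3.53e-04). Cd163l1 lost its call with no filter on low counts (3.57, adjusted p 0.0571). Trdc lost its call among the 5 tumours with little Ptcra (0.96), under voom (0.73) and within the last 25 libraries of the run (0.99). The 4 tested gamma segments all rose, among them Tcrg-V4 (5.05) and Trgv2 (4.31), and 9 of 19 tested lineage and effector genes rose and 5 fell. Against D/AAA DN1 cells, 0 of 6 genes passed (0.00862% of all genes, 1672 unadjusted; 378 genes under DESeq2 and 21 under voom). Tcrg-C1 (0.86 ± 0.23, adjusted p 0.158), Tcrg-C2 (0.83 ± 0.31, 0.225) and Tcrg-C4 (0.76 ± 0.28, 0.224) leaned higher in 7 of 7 tumours, and Cd163l1 (0.48 ± 0.56), Trdc (0.31 ± 0.42) and Sox13 (-0.36 ± 0.60) had SEs larger than the difference. Both comparisons use the same 7 tumours, and the DP libraries also served the sorted early tumours. Markers of other cells were present too, with 333 to 2645 CPM of NK and innate lymphoid genes against 24.4 to 724 in D/AAA DP cells, 21.9 to 1622 CPM of B cell genes and 7.06 to 1261 of myeloid genes. Their part in these levels was not tested.

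**Figure D3:**
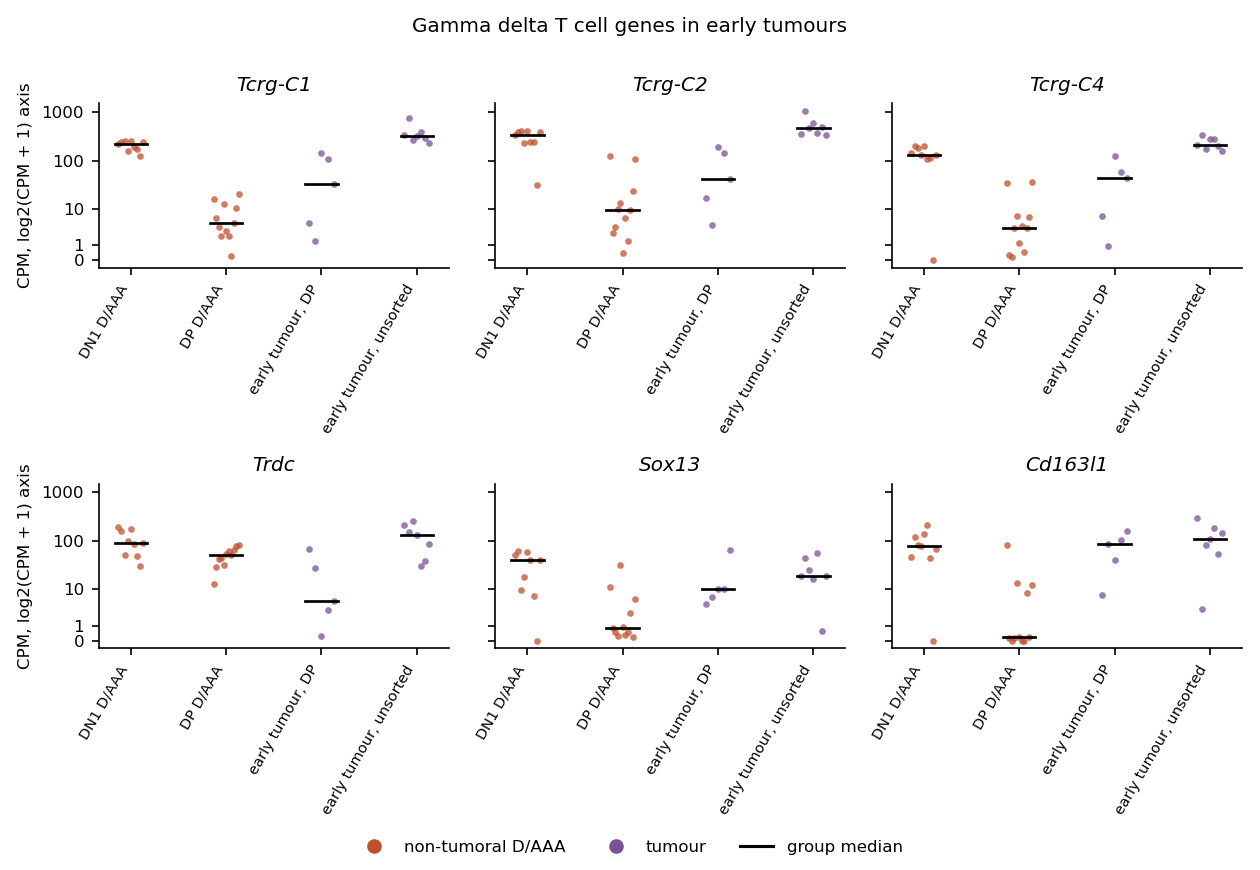
CPM of each gene in D/AAA DN1 cells, D/AAA DP cells, early tumours sorted as DP and unsorted early tumours, on a log2(CPM + 1) axis labelled in CPM, with 1 point per library and a line at the median. The 7 unsorted tumours have 236 to 743 CPM of Tcrg-C1 and the 5 sorted ones 1.5003 to 144, and 3 sorted tumours lie below all DP libraries for Trdc.

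In non-tumoral RERT2 +/D thymus of the later run, Tcrg-C1 ran from 3.10 to 14.2 CPM (median 7.14), Tcrg-C2 from 4.65 to 15.9 (10.5), Tcrg-C4 from 0.345 to 4.81 (2.30), Trdc from 9.62 to 23.7 (15.5), Sox13 from 2.59 to 12.5 (6.71) and Cd163l1 from 0 to 7.33 (2.51). D/AAA thymus had medians of 14.8 CPM for Tcrg-C1 (8.18 to 62.4), 18.8 for Tcrg-C2 (8.90 to 126), 9.33 for Tcrg-C4 (1.44 to 54.2), 15.9 for Sox13 (6.49 to 57.9) and 8.61 for Cd163l1 (0.962 to 42.9). Trdc, with 8.64 to 27.96 CPM (median 10.4), did not share this shift. The differences were 1.56 ± 0.44 for Tcrg-C1 (edgeR adjusted p 0.382, higher in 9 of 9), 1.77 ± 0.52 for Tcrg-C2 (0.428, 8 of 9), 2.67 ± 0.75 for Tcrg-C4 (0.383, 7 of 9), 1.66 ± 0.47 for Sox13 (0.382, 8 of 9), 2.30 ± 0.78 for Cd163l1 (0.467, 7 of 9) and -0.23 ± 0.31 for Trdc (0.884). None of the 6 passed, nor did any gene (0.0% of 11044; 907 unadjusted, 49 under DESeq2, 1 under voom). DESeq2 called Tcrg-C2 (adjusted p 0.0499), Tcrg-C4 (0.0207) and Sox13 (0.0499).

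The summed gamma constant level of D/AAA thymus was 28.2, 36.4, 100, 23.8, 118, 21.6, 242, 58.4 and 46.1 CPM in replicates 1 to 9, against 12.5 to 29.8 in +/D thymus. The 4 highest sums were those of replicates 3, 5, 7 and 8, the 4 libraries with a chromosome 15 score above 0.292. Without them the differences were 0.60 for Tcrg-C1, 0.48 for Tcrg-C2, 1.24 for Tcrg-C4, 0.84 for Sox13 and 0.70 for Cd163l1, and 0 genes of the 6 passed. NK and innate lymphoid genes summed to 12.7 to 31.3 CPM in +/D and 27.9 to 207 CPM in D/AAA thymus, and their part in the difference was not tested. In MYCChr6 thymus, the 2 +/D libraries had 24.2 and 36.4 CPM of Tcrg-C1, 13.4 and 14.3 of Tcrg-C2, 5.15 and 2.63 of Tcrg-C4, 26.9 and 21.4 of Trdc, 12.99 and 4.88 of Sox13 and 3.14 and 1.88 of Cd163l1. The 3 D/AAA MYCChr6 libraries had 16.1, 17.8 and 48.7 CPM of Tcrg-C1, 14.9, 27.3 and 55.2 of Tcrg-C2 and 1.75, 6.47 and 10.8 of Tcrg-C4. They had 7.31, 28.6 and 40.7 CPM of Trdc, 211, 12.4 and 16.4 of Sox13 and 24.3, 5.88 and 11.3 of Cd163l1. The library with 211 CPM of Sox13 was also the one of the 3 with a chromosome 15 score above 0.292 (0.566).

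In lymphomas each of the 6 genes was at 0 in some libraries. Among 22 RERT2 D/AAA tumours, Tcrg-C1 ran from 0 to 137 CPM (median 2.43), Tcrg-C2 from 0 to 173 (8.36), Tcrg-C4 from 0 to 106 (4.68) and Trdc from 0 to 53.4 (0.206). Sox13 ran from 0 to 145 CPM (median 23.7) and Cd163l1 from 0 to 389 (13.6). Trdc was the gene most often missing: 35 of 56 lymphomas of all genotypes held under 1 CPM and 25 held no count, while 0 of 20 thymus libraries were under 1 CPM. Under 1 CPM were 19 lymphomas for Tcrg-C1, 22 for Tcrg-C2, 15 for Tcrg-C4, 11 for Sox13 and 10 for Cd163l1, and in 0 of 56 were all 6 genes under 1 CPM. The summed gamma constant level was below that of every +/D thymus in 27 lymphomas and above 100 CPM in 10, of which 8 had Trdc under 1 CPM.

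**Figure D4:**
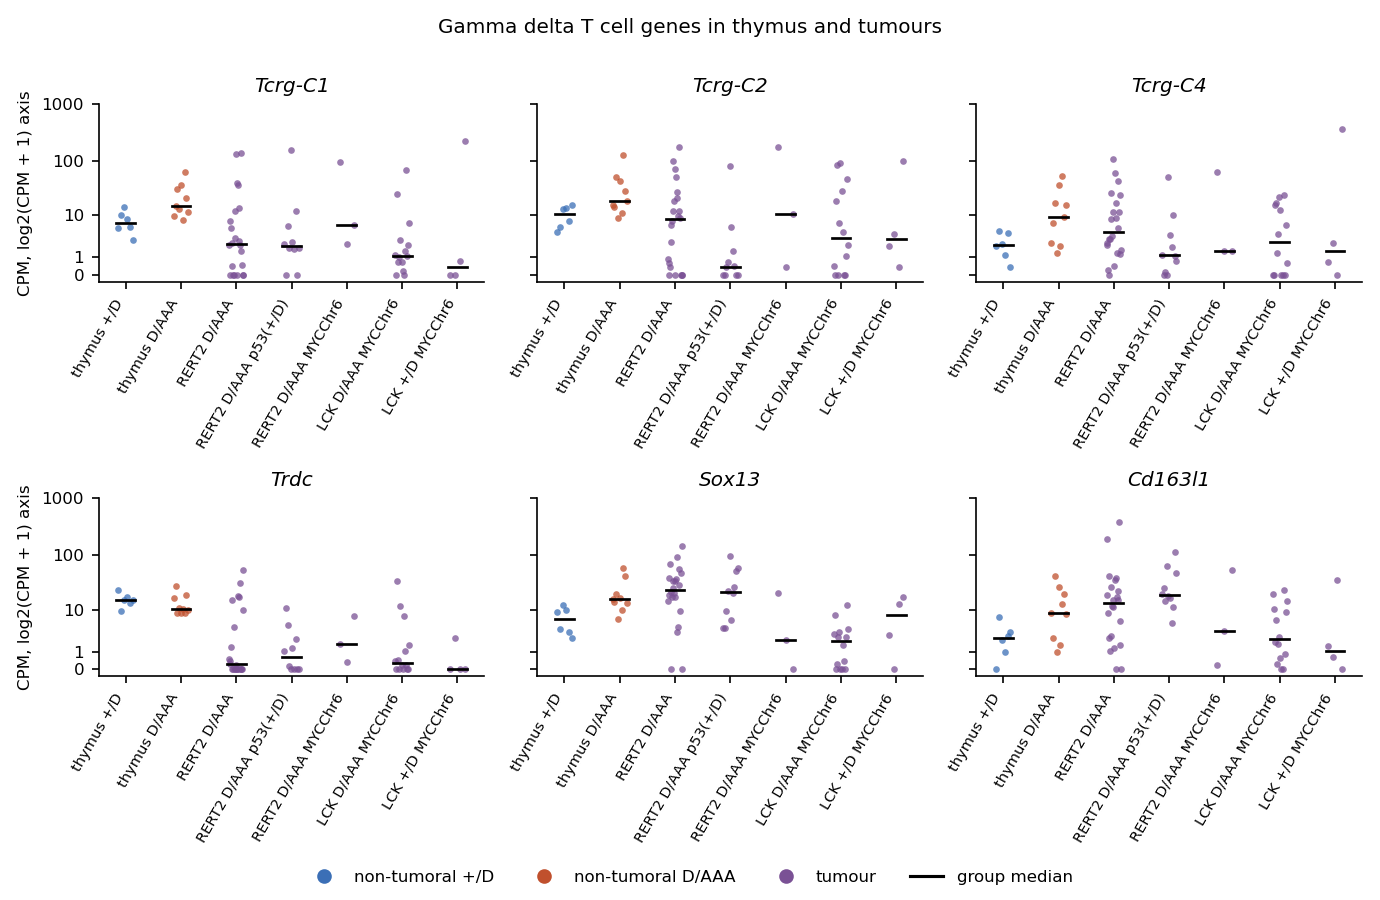
CPM of each gene in thymus and lymphoma groups of the later run, on a log2(CPM + 1) axis labelled in CPM, with 1 point per library and a line at the group median. Trdc has a median of 15.5 CPM in +/D thymus and 0.206 CPM in RERT2 D/AAA tumours, and the gamma constant genes spread from 0 to over 100 CPM within the latter.

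Set against D/AAA thymus in edgeR, 0 of 6 genes differed in RERT2 D/AAA tumours, although 34.9% of all genes did (5186 of 11634 unadjusted). Differences were -0.39 ± 0.95 for Tcrg-C1, -0.62 ± 0.87 for Tcrg-C2, -0.10 ± 0.78 for Tcrg-C4, 0.56 ± 0.61 for Sox13, 1.44 ± 0.95 for Cd163l1 and -1.02 ± 0.96 for Trdc (adjusted p 0.429, 17 of 22 tumours below the thymus median). Under voom Trdc (-4.08, adjusted p 1.45e-05), Tcrg-C1 (-3.28, 5.95e-04) and Tcrg-C2 (-2.55, 0.0153) passed. With +/D thymus in place of D/AAA thymus, Sox13 (2.22, adjusted p 0.0333) and Cd163l1 (3.76, 0.0304) passed, and the gamma constant genes took the opposite sign (1.16, 1.16 and 2.57). Of 18 tested lineage and effector genes 1 rose and 7 fell, among the lower Il2rb (-3.31) and Egr2 (-4.61), an early response gene of receptor signalling. B cell (3 of 3, median -2.73) and red cell genes (5 of 5, -2.80) also fell, and their part was not tested.

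The 10 tumours labelled p53(+/D) had medians of 2.22 CPM for Tcrg-C1, 0.383 for Tcrg-C2, 1.19 for Tcrg-C4, 0.616 for Trdc, 21.9 for Sox13 and 18.8 for Cd163l1, and replicate 5 alone held 153, 80.7 and 50.7 CPM of the 3 gamma constant genes. Against RERT2 D/AAA tumours 0 of 6 genes passed in edgeR (1.29% of all genes, 1651 unadjusted). DESeq2 called 2 of them and 3.15% of all genes. The 3 RERT2 MYCChr6 tumours held 96.2, 2.46 and 6.39 CPM of Tcrg-C1, 175, 0.352 and 10.5 of Tcrg-C2 and 62.9, 1.58 and 1.60 of Tcrg-C4. They held 1.81, 0.352 and 7.53 CPM of Trdc, 20.8, 2.29 and 0 of Sox13 and 0.181, 3.70 and 54.96 of Cd163l1. In them 0 of 6 passed in edgeR against RERT2 D/AAA tumours (9.23% of all genes, 3132 unadjusted). Against MYCChr6 thymus 0 passed (2.17% of all genes, 2169 unadjusted), where DESeq2 called 1 of the 6 and 9.55% of all genes.

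LCK D/AAA MYCChr6 tumours were lower in Sox13 and Cd163l1 than RERT2 D/AAA tumours in edgeR. Mean Sox13 was 2.77 CPM in them, against 7.71 in RERT2 D/AAA MYCChr6, 8.34 in LCK +/D MYCChr6 and 5.22 in CD4 D/AAA MYCChr6 tumours. Mean Cd163l1 was 6.62 CPM in them and 2.80 in +/D thymus. Their 14 libraries had Sox13 at 0 to 12.5 CPM (median 2.13) and Cd163l1 at 0 to 24.02 (2.36), with Tcrg-C1 at 0 to 68.8 (1.15), Tcrg-C2 at 0 to 90.5 (3.46), Tcrg-C4 at 0 to 24.2 (2.76) and Trdc at 0 to 34.9 (0.297). Against RERT2 D/AAA tumours, 2 of 5 tested genes passed in edgeR and 35.3% of all genes did: Sox13 fell by 3.59 ± 0.72 (adjusted p 1.84e-04, 14 of 14 below the RERT2 median) and Cd163l1 fell by 2.55 ± 0.86 (0.0195, 11 of 14). Under voom neither passed (Sox13 -4.20, adjusted p 0.160, and Cd163l1 -1.68, 0.320), though 36.6% of all genes did. Tcrg-C1 (-1.16 ± 0.98), Tcrg-C2 (-0.21 ± 0.91) and Tcrg-C4 (-1.04 ± 0.79) did not pass, and Trdc was too low to be kept. Markers of other cells moved in the same comparison. B cell (3 of 3, median 4.37), myeloid (3 of 5, 2.02) and dendritic genes (2 of 2, 2.51) rose, the 1 tested NK and innate lymphoid gene fell (-2.41), and their part was not tested. The 2 groups differ in line and in MYCChr6 together, and this comparison cannot separate them. Within the RERT2 line, D/AAA MYCChr6 tumours (n = 3) were set against D/AAA tumours in edgeR. Sox13 differed by -2.10 (adjusted p 0.355, 3 of 3 below the RERT2 D/AAA median) and Cd163l1 by -0.96 (0.804, 2 of 3). Neither passed. A difference between the LCK and RERT2 lines among D/AAA MYCChr6 tumours was not tested. The 4 LCK +/D MYCChr6 tumours had 0, 0, 0.7501 and 220 CPM of Tcrg-C1, 2.17, 4.28, 0.375 and 98.6 of Tcrg-C2 and 0.652, 2.57, 0 and 364 of Tcrg-C4. They had 0, 2.57, 0 and 0 CPM of Trdc, 3.04, 0, 12.8 and 17.6 of Sox13 and 1.52, 0.642, 35.4 and 0 of Cd163l1. By genotype 0 of the 6 genes and 0.0% of all genes passed in edgeR (653 unadjusted, 19 under DESeq2, 0 under voom). The 2 CD4 D/AAA MYCChr6 tumours had 63.3 and 0 CPM of Tcrg-C1, 183 and 8.002 of Tcrg-C2, 35.8 and 16.004 of Tcrg-C4, 0 and 10.4 of Sox13, 1.27 and 40.1 of Cd163l1 and no Trdc count. The p53(-/-) tumour had 68.2 CPM of Tcrg-C1, 15.1 of Tcrg-C2, 4.77 of Tcrg-C4, no Trdc count, 12.2 of Sox13 and 36.8 of Cd163l1.

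The make-up of the gamma constant RNA differed from tumour to tumour where the counts allowed a share, which was taken at 100 or more counts. Intervals are exact Clopper-Pearson 95% intervals and cover counting error only. For a gene with 0 counts the limit given is instead 3 counts over the total. Tcrg-C1 made up 25.27% to 37.82% in the 6 D/AAA thymus libraries without MYCChr6 that had a share. This is not the range of all non-tumoral thymus. In +/D MYCChr6 thymus (n = 2), Tcrg-C1 was the highest of the 3 genes. Its mean was 30.3 CPM there, against 13.9 for Tcrg-C2 and 3.89 for Tcrg-C4. In 7 of 24 lymphomas one gene made up over 70% of the 3 genes' counts, as it did in 1 of 15 thymus libraries (+/D replicate 6, Tcrg-C2 at 82.14%, 73.8 to 88.7, of 112 counts). RERT2 replicate 8 had 0 of 685 counts on Tcrg-C1, which allows up to 0.438%, and 79.27% (76.04 to 82.25) on Tcrg-C2. RERT2 replicate 20 had 98.01% (94.3 to 99.6) of 151 counts on Tcrg-C4. Among LCK D/AAA tumours, Tcrg-C2 made up 82.57% (78.8 to 85.9) in replicate 4, 79.65% (76.4 to 82.6) in replicate 7 and 84.05% (78.99 to 88.3) in replicate 13. Replicate 11 of that group had 73.98% (69.8 to 77.8) on Tcrg-C1 and 0 of 488 on Tcrg-C2, which allows up to 0.615%. The p53(-/-) tumour had 77.49% (73.4 to 81.2) of 462 counts on Tcrg-C1. As background, Tcrg-C1 and Tcrg-C2 differ at 9 of 330 first exon bases, as printed in part above.

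V shares were taken at 100 or more gamma V counts, which 3 of these 7 tumours had. These tumours were picked by their constant gene share, so a leading V gene upstream of that constant gene is not independent of the pick. V shares of the other lymphomas are not given here. In RERT2 replicate 8, Trgv2 made up 90.62% of 128 gamma V counts, and in LCK D/AAA replicate 7 it made up 94.44% of 108 such counts. In the p53(-/-) tumour Tcrg-V4 made up 77.67% of 103. The leading V gene made up 59.84%, 36.30% and 50% in D/AAA thymus replicates 3, 5 and 7, the non-tumoral libraries with enough V counts. On chromosome 13, Trgv2 lies at 19336573 to 19337167, upstream of Tcrg-C2 on its minus strand, and Tcrg-V4 at 19184974 to 19185506, upstream of Tcrg-C1 on the plus strand.

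**Figure D5:**
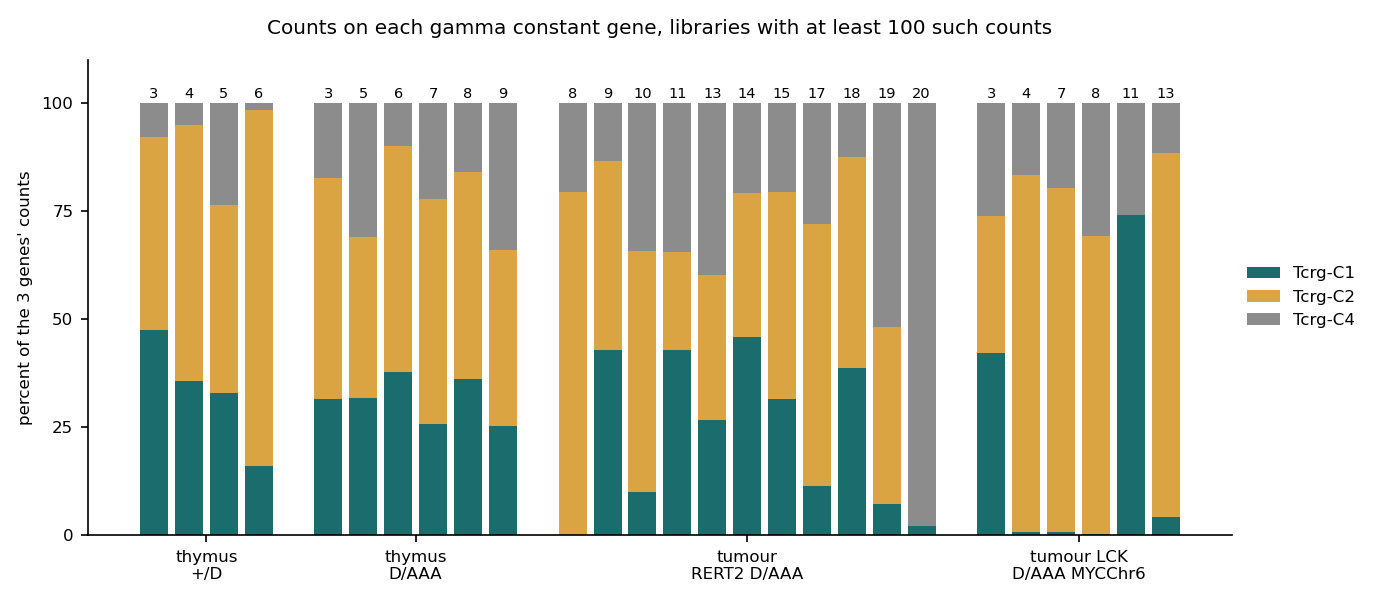
Percent of the summed counts of Tcrg-C1, Tcrg-C2 and Tcrg-C4 taken by each gene, as stacked bars for libraries of thymus and lymphoma with 100 or more such counts, with replicate numbers above the bars. Bars of the 6 D/AAA thymus libraries hold 25.27% to 37.82% of Tcrg-C1, while RERT2 replicate 8 holds 0 and LCK D/AAA replicate 11 holds 73.98%. Thymus with MYCChr6 is not shown.

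Across libraries, genes other than the 6 were ranked by likeness to each of them. Likeness was the lower of the Pearson r of log2(CPM + 1) in each run, taken as a description, and libraries share stages and runs. For Tcrg-C2 the gene most alike was Trgv2 (r 0.966 over 81 earlier and 0.947 over 76 later libraries), for Tcrg-C1 it was Tcrg-V4 (0.853 and 0.893) and for Tcrg-C4 it was Tcrg-V1 (0.925 and 0.835). In the earlier run alone Trgv2 was closer to Tcrg-C1 (0.904) and to Tcrg-C4 (0.973) than these were, with 0.578 and 0.776 in the later run. Among themselves, Tcrg-C1 and Tcrg-C2 had an r of 0.963 in the earlier and 0.604 in the later run, and Tcrg-C2 and Tcrg-C4 of 0.975 and 0.740. Trdc stood apart from Tcrg-C1 (0.475 and 0.184), and the gene most like it, Tgtp1, reached only 0.561 and 0.601. For Cd163l1 it was Olfr524 (0.548 and 0.821), followed by 5830411N06Rik (0.844 and 0.482), also known as Scart2. These 2 genes flank Cd163l1 on chromosome 7, at 140198499 to 140205964 and 140247284 to 140300736. For Sox13 it was Tuba8 (0.579 and 0.590), followed by Gzma, a granzyme gene of cytotoxic cells (0.595 and 0.532).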

How the data were processed

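Per the labels' protocols, the RNeasy Plus Mini kit gave RNA of sorted cells or unsorted tumours for the HiSeq2000. Per the submitters' processing notes, FastQC, STAR 2.5.3a and RSEM 1.3.0 were used with GRCm38 (mm10). The values in both tables the authors deposited are expected counts per gene, estimated by RSEM, and were rounded to whole numbers here. Not given in the sources used here are strandedness, read length and the annotation. Symbols came from GENCODE M21 (50462 of 50686 identifiers). No column lacked a sample and no libraries were duplicates.

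The genes, lists and tests were chosen with earlier results of these data known. Groups follow the labels, and each comparison stayed within 1 run. Genes were kept by filterByExpr, scaled by TMM and tested with edgeR 4.0.16 robust quasi-likelihood fits in R 4.3.3, 2-sided, with Benjamini-Hochberg adjustment over all genes tested and a threshold of 0.05. The 5 +/D stages shared 1 fit; other comparisons were fitted on their own libraries, and DN2 was left out of the genotype by stage test because 1 library was D/AAA. Groups of under 3 libraries were not tested. The text names the 6 genes, up to 4 genes per list and comparison with the lowest p, and for likeness up to 4 genes per member with the highest lower r of the 2 runs, among 10941 genes that averaged 5 CPM or more in a group of each run. The values of some list members are left out here. Chromosome scores, against +/D libraries, used a prior of 2 CPM and genes averaging 10 CPM or more. Each result was recomputed with RLE size factors, with DESeq2 1.42.0, with no filter on low counts, with 1 fit of the run, with the first 56 or last 25 libraries of the earlier run, without the shallow DN1 library, leaving out single libraries where a group had at most 5, and with +/D thymus as reference, where these applied. Chosen after seeing the data were limma 3.58.1 voom with quality weights, leaving out non-tumoral libraries with raised chromosome 15, and leaving out 2 unsorted early tumours with much Ptcra. The fits were tested on simulated data. Summaries used Python 3.11.15, numpy 2.4.6 and pandas 2.3.3.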

Additional observations from a re-analysis of the deposited data

Results flagged for a closer look

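Within groups of 4 to 10 libraries, 21 of 84 gene and group combinations held a library far from the rest of its group by Dixon's criterion. For normally distributed values, chance alone gives such a library in about 1 in 20 groups. CPM here are skewed, so this rate need not hold and the 21 cannot be set against it. Several of the 21 come from the same library.

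Among lymphomas, p53(+/D) replicate 5 lay far above the rest of its group in Tcrg-C1 (153.25 CPM, next 12.404), Tcrg-C2 (80.716, next 5.79) and Tcrg-C4 (50.72, next 10.041). LCK +/D MYCChr6 replicate 4 did so for the same 3 genes, with 219.61 CPM of Tcrg-C1 (next 0.75), 98.57 of Tcrg-C2 (next 4.28) and 363.84 of Tcrg-C4 (next 2.57). Trdc was high in p53(+/D) replicate 2 (11.064 CPM, next 4.97) and in LCK +/D MYCChr6 replicate 2 (2.5693 CPM, with 0 in the other 3). Cd163l1 was high in p53(+/D) replicate 9 (113.42 CPM, next 62.903) and in LCK +/D MYCChr6 replicate 3 (35.44 CPM, next 1.52).

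Of the early tumours, unsorted replicate 2 stood above its group in Tcrg-C1 (742.98 CPM, next 385.6) and Tcrg-C2 (1031.0, next 592.35), and sorted DP replicate 5 in Sox13 (65.993, next 10.15). D/AAA thymus replicate 7 was the highest of its group for Tcrg-C2 (125.52 CPM, next 51.409).

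In sorted cells, D/AAA DN1 replicate 8, the library of 21199 counts, was the lowest of its group for Tcrg-C2 (31.284 CPM, next 227.16) and Tcrg-C4 (0.0, next 108.28). Sox13 was high in +/D DN4 replicate 1 (87.44 CPM, next 45.593) and +/D DP replicate 4 (8.7497, next 1.908). Cd163l1 was high in replicate 5 of +/D DN3 (37.683 CPM, next 19.431), replicate 5 of D/AAA DN3 (39.946, next 14.082) and replicate 6 of +/D DP (19.899, next 0.442).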

How the results depend on the processing

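Among recomputed fold changes 34 newly passed, 10 no longer passed, 11 reversed and the rest kept direction and side of the threshold; of the counts of genes called 128 held and 19 moved. In 1 fit of the run 3 genes passed from DN1 to DN2, 1 from DN2 to DN3, 2 by genotype at DP and 4 in sorted early tumours, and Trdc lost its calls at the 3 double negative steps. DESeq2 called 1 by genotype at DN4 (0.211%), 1 in sorted early tumours (6.99%) and 1 in unsorted early tumours against DN1 (3.26%). It called 3 in thymus (0.444%), 2 in p53(+/D) tumours (3.15%) and 1 in RERT2 MYCChr6 tumours against their thymus (9.55%). In the last comparison 1 also passed with no filter (4.19%). Voom gave 4 from DN2 to DN3, 3 in sorted early tumours, 3 in RERT2 tumours against thymus and 0 in LCK against RERT2 tumours. Sorted early tumours gave 0 to 2 with 1 tumour left out (2 without replicate 1), 2 within the last 25 libraries and 3 without DP libraries of raised chromosome 15. With +/D thymus as reference RERT2 tumours gave 2. The cause was not tested.

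Reversed differences were Trdc by genotype at DP within the first 56 libraries (-0.61) and, in unsorted early tumours against DN1, Trdc under voom (-0.26) and among 5 tumours with little Ptcra (-0.09), and Sox13 within the last 25 libraries (0.27). In RERT2 tumours, Sox13 reversed under voom (-0.24). Tcrg-C1, Tcrg-C2 and Tcrg-C4 reversed against +/D thymus (1.16, 1.16 and 2.57) and against D/AAA thymus without raised chromosome 15 (0.59, 0.70 and 1.35). None of these passed the test.

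No paired analysis was possible because the labels carry no replicate numbers. At the depths here 1 count is a large part of levels under 1 CPM, and Tcrg-C shares under 100 counts were not taken.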

Other observations

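Single RERT2 D/AAA lymphomas differed in which of these genes they held. Replicate 22 had 53.4 CPM of Trdc and 145 CPM of Sox13, the highest of its group for both, with 1.11 CPM of Trac and 9 summed gamma constant counts. Replicate 19 had 389 CPM of Cd163l1 and replicate 2 had 190, with no Trdc count in replicate 19. Replicate 17 held 450 CPM of the delta V genes other than Trdv5, summed, and replicate 11 held 199 CPM, against 0.203 CPM of Trdc and 309 CPM of the gamma constant genes. These tumours were picked after their values were seen, and no test was made.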
